A study of Mus musculus with 2 samples.

Results

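Genes that store, release or export iron or that defend against oxidants were followed through single retinal cells after light damage. The list of 10 mouse genes holds Fth1, Ftl1, Slc40a1, Hmox1, Slc7a11, Gclm, Srxn1, Prdx1, Txnrd1 and Sod2. All 10 symbols were found among the 27998 genes of the deposited matrices. They were chosen by symbol, without a threshold on their values.

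The study profiled Cx3cr1-positive cells of the retina by droplet RNA sequencing at the 3′ end of transcripts. The LD library came from light-damaged male CB6F1 Cx3cr1-YFP mice aged 8 months. Their stated treatment was a night of dark adaptation, pupil dilation with atropine sulfate and phenylephrine hydrochloride, 4 h of LED light at 10 klux and 5 days back in normal lighting. The ctrl library came from mice of the same strain, sex and age with no light damage, and whether these mice were also dark-adapted or dilated is not given in the sources used here. Each library was 1 pool of retinas from 5 to 8 mice, digested with collagenase A and DNase I and sorted for live YFP-positive cells. Because Cx3cr1 drives the reporter, cells that have little Cx3cr1 can be lost in the sort, and the design of the allele is not given in the labels. With 1 library per condition there was no replicate check and no test between conditions. Intervals below are 95% and cover counting error only, so the spread between mice is unknown.

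Ferritin is a shell of heavy chains (Fth1, which oxidises iron so that it can be stored) and light chains (Ftl1, which aid mineral formation). Macrophages that engulf dying cells or red cells take up heme, which heme oxygenase 1 (Hmox1) opens to release iron, and ferroportin (Slc40a1) is the exporter that lets iron leave the cell. Iron regulatory proteins bind a hairpin called the iron-responsive element in the 5′ UTR of ferritin and ferroportin messages and block their translation when iron is scarce. The transcription factor NRF2 switches on a defence programme that includes Hmox1, both ferritin chains, the cystine importer chain Slc7a11, the glutathione synthesis subunit Gclm, the sulfiredoxin Srxn1, the peroxiredoxin Prdx1 and the thioredoxin reductase Txnrd1. Sod2, the mitochondrial superoxide dismutase, is a well-known target of inflammatory signalling. Photoreceptor outer segments are rich in oxidisable lipids, and microglia clear them after light injury.

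The sequences that set the iron-storage members apart lie in their 5′ UTRs. The 30-base sites below were taken from GENCODE M21 transcripts on GRCm38, and capitals mark the 6-base loop CAGTGN, the defining letters of an iron-responsive element. The first 3 also have an unpaired C at the sixth base before the loop and 5 of 5 complementary pairs beside it. The Hmox1 site holds the loop letters without that C and stem, and is shown for contrast.
Fth1, chr19:9982732-9982761, plus strand: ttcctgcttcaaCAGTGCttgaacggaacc
Ftl1, chr7:45459778-45459807, minus strand: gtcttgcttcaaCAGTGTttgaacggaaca
Slc40a1, chr1:45925464-45925493, minus strand: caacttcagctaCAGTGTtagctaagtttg
Hmox1, chr8:75093647-75093676, plus strand: tccgcatacaacCAGTGAgtggagcctgcc
The loop alone is common, since 24.9% of 50507 annotated 5′ UTRs hold it. Loop, stem and unpaired C together were found in 0.119%, which is 60 transcripts of 31 genes. A match is a description of letters and not a measured binding event, and the RNA counts reported here do not read translation.

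Promoters of the oxidant-defence members were searched for TGACNNNGC, the core of the antioxidant response element to which NRF2 binds, on both strands. The windows ran from 250 bases before to 50 bases after each RefSeq start (GRCm38.p6), and 8 of the 10 members matched an entry. Capitals mark the core, which reads on the opposite strand in each case. For Gclm the core lay 134 to 126 bases before the start, for Prdx1 133 to 125 and for Txnrd1 92 to 84, while for Srxn1 it lay 28 to 36 bases into the transcript. Txnrd1 had the core in 1 of its 3 start windows.
Gclm, chr3:122245397-122245457, plus strand: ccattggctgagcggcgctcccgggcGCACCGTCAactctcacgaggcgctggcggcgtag
Prdx1, chr4:116685440-116685500, plus strand: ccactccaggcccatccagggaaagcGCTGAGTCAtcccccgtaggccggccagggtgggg
Txnrd1, chr10:82859088-82859148, plus strand: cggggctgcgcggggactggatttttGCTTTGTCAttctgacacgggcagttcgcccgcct
Srxn1, chr2:152105531-152105560, plus strand: cgccacggcgggcagtgggcaGCTAGGTCA
Those 4 of 8 members compare with 14.0% of 27025 genes that hold the core in at least 1 window of the same length. The windows of Fth1, Ftl1, Slc7a11 and Sod2 do not contain these letters, which says nothing about NRF2 at sites elsewhere.

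Cells were sorted into classes by summed marker counts per 10000 unique molecular identifiers (UMIs, each standing for 1 captured RNA molecule). Microglia had at least 20 from P2ry12, Tmem119, Siglech, Gpr34 and P2ry13, and perivascular macrophages at least 10 from Mrc1, F13a1, Cd163, Lyve1 and Cbr2. A further class had under 10 of each sum. After filtering, 6427 LD cells with 54065016 UMIs and 3820 ctrl cells with 19111107 UMIs were kept, and the libraries shared 47 cell barcodes. Microglia numbered 4385 in LD (68.2% of cells, 67.1 to 69.4) and 3374 in ctrl (88.3%, 87.3 to 89.3). Perivascular macrophages numbered 84 in LD (1.31%) and 53 in ctrl (1.39%). Cells low for both signatures numbered 1171 in LD (18.2%, 17.3 to 19.2) and 244 in ctrl (6.39%, 5.63 to 7.21). Another 785 LD and 144 ctrl cells fell between the gates, 2 LD and 5 ctrl cells passed both gates, and neither kind was used for class sums. A cell near a gate can change class with a few UMIs, and 403 LD and 81 ctrl microglia had signature sums of 20 to 25, while 357 LD and 63 ctrl cells had 15 to 20.

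The gating rule names the cells low for both signatures other macrophages, and in ctrl the markers went against that name for part of the class. There, 29 of 1171 LD cells and 62 of 244 ctrl cells had under 20 counts per 10000 from 5 pan-myeloid markers. Rod photoreceptor markers summed to 326 counts per 1000000 UMIs (CPM) in LD and 15402 CPM in ctrl, with none of the 7 at 0 in either library. Erythrocyte markers summed to 0 in LD, with all 5 at 0, and to 174 CPM in ctrl, with 1 of 5 at 0. The class is therefore called low-signature cells here, and each member's ratio of LD to ctrl in it is also given for its myeloid low-rod cells, which had pan-myeloid counts of at least 20 and rod counts under 20 per 10000. These numbered 1134 in LD and 164 in ctrl, with rod sums of 65.8 and 475 CPM, and with perivascular marker sums of 50.6 CPM in LD and 379 CPM in ctrl. Markers of handling stress (Fos, Jun, Egr1, Ier2, Hspa1a, Hspa1b, Atf3 and Dusp1) also moved with condition. Handling stress is only the name of the list, and what moved these genes was not tested. They summed to 12059 CPM in LD and 20929 CPM in ctrl microglia, 19495 and 40197 CPM in LD and ctrl perivascular macrophages, and 9665 and 32423 CPM in LD and ctrl myeloid low-rod cells.

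Levels below are CPM of the summed UMIs of a class in a library. A gene was called different between classes or libraries when its ratio passed 1.5-fold and at least 1 side reached 20 CPM. The 3′ counts are not divided by transcript length, so levels are compared for a gene across groups and not between genes.

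**Figure D1:**
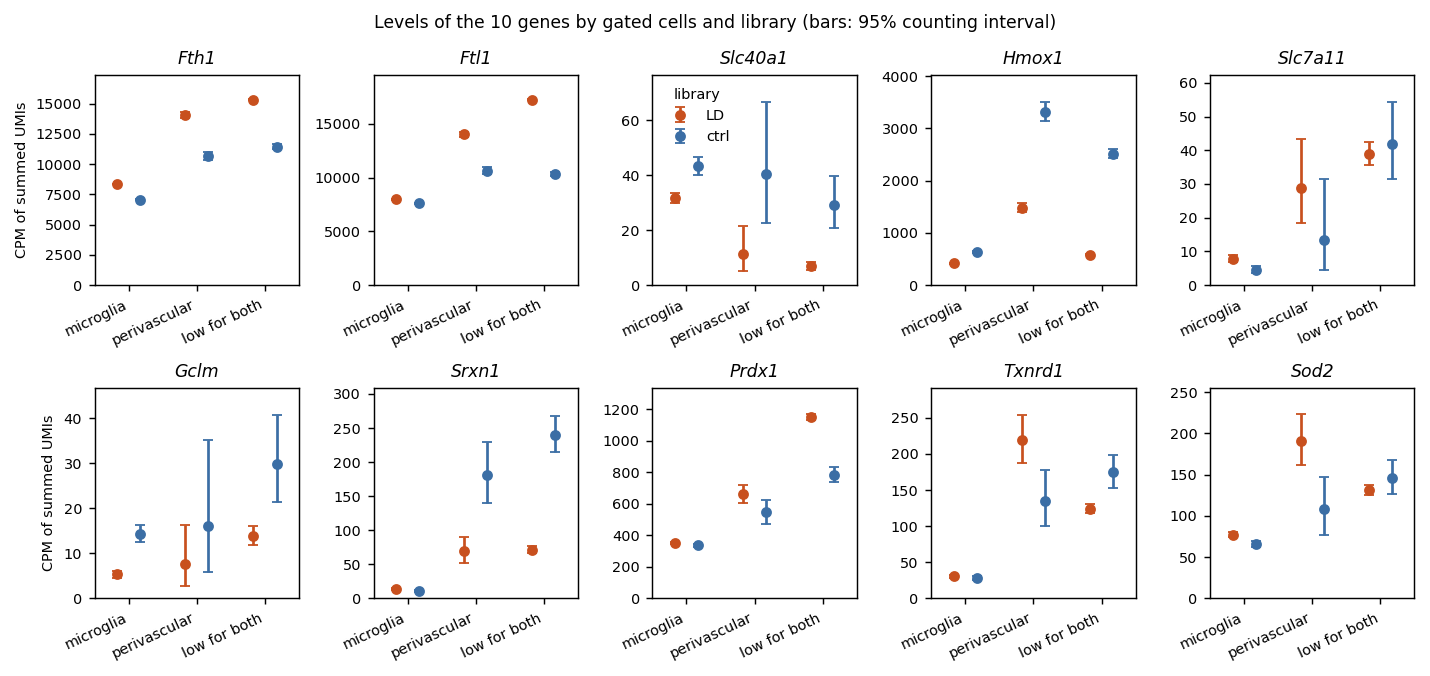
Levels of the 10 genes (CPM, linear axis from 0, 1 panel per gene) in the 3 cell classes, with LD points left of ctrl points in each class and bars for 95% counting intervals. Hmox1 and Srxn1 stand highest in ctrl perivascular macrophages and ctrl low-signature cells, whereas Ftl1 and Prdx1 stand highest in LD low-signature cells.

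Perivascular macrophages and low-signature cells held more of most of these transcripts than microglia did, in both libraries. Perivascular macrophages exceeded microglia for 8 of the 10 genes in LD and 6 of 10 in ctrl. Of all genes tested 15.7% were called higher and 31% lower in LD, and 16.7% higher and 39.2% lower in ctrl. Median-of-ratios scaling made these 21.4% and 19.2% in LD and 22.1% and 28.1% in ctrl. The ratio of perivascular macrophages to microglia for Txnrd1 was 7.13 (6.04 to 8.39) in LD and 4.80 (3.51 to 6.44) in ctrl, and for Srxn1 it was 5.14 (3.81 to 6.82) in LD and 17.1 (12.7 to 22.7) in ctrl. Low-signature cells exceeded microglia for 7 members in LD, where 13.5% of genes tested did, and for 8 in ctrl, where 25% did and 25.9% were lower (29% and 20% under median-of-ratios scaling). Over the members that reached the minimum, 9 in LD and 10 in ctrl, the median log2 ratio of low-signature cells to microglia was 1.12 in LD, against -0.07 for all genes tested, and 1.18 in ctrl, against -0.10. Restricted to myeloid low-rod cells, 7 members were higher in LD (12.8% of genes tested) and 9 in ctrl (15.7%). Srxn1 had the widest of those ratios in ctrl, at 28.6 (23.7 to 34.6), followed by Slc7a11 at 11.7 and Txnrd1 at 7.81.

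Slc40a1 ran the other way. In LD it was 2.80-fold lower in perivascular macrophages than in microglia, where 31% of genes were called lower, and 4.64-fold lower in low-signature cells, where 17.7% were. In ctrl it was 0.932 of the microglial level in perivascular macrophages and 1.49-fold lower in low-signature cells, which was not called. In myeloid low-rod cells it was 4.94-fold lower in LD, where 18.9% of genes were called lower. The ctrl value in those cells was 1.62-fold lower, where 40% were. It was the single member called lower than microglia in any of those comparisons.

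Between conditions, microglia showed few changes. Of the 10 genes, 7 reached the minimum, none was higher in LD, Hmox1 was lower and 6 stayed within 1.5-fold. Across all 5224 genes tested, 5.42% were called higher and 6.7% lower. In perivascular macrophages 3 members were higher in LD (Slc7a11, Txnrd1 and Sod2, background 21.1%) and 3 lower (Slc40a1, Hmox1 and Srxn1, background 16.1%). In low-signature cells 1 was higher (Ftl1, background 22.9%) and 4 lower (Slc40a1, Hmox1, Gclm and Srxn1, background 28.4%). In myeloid low-rod cells none was higher (background 33%) and 5 were lower (Slc40a1, Hmox1, Gclm, Srxn1 and Txnrd1, background 18.4%), with a member median log2 ratio of -0.70 against 0.28 for all genes.

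**Figure D2:**
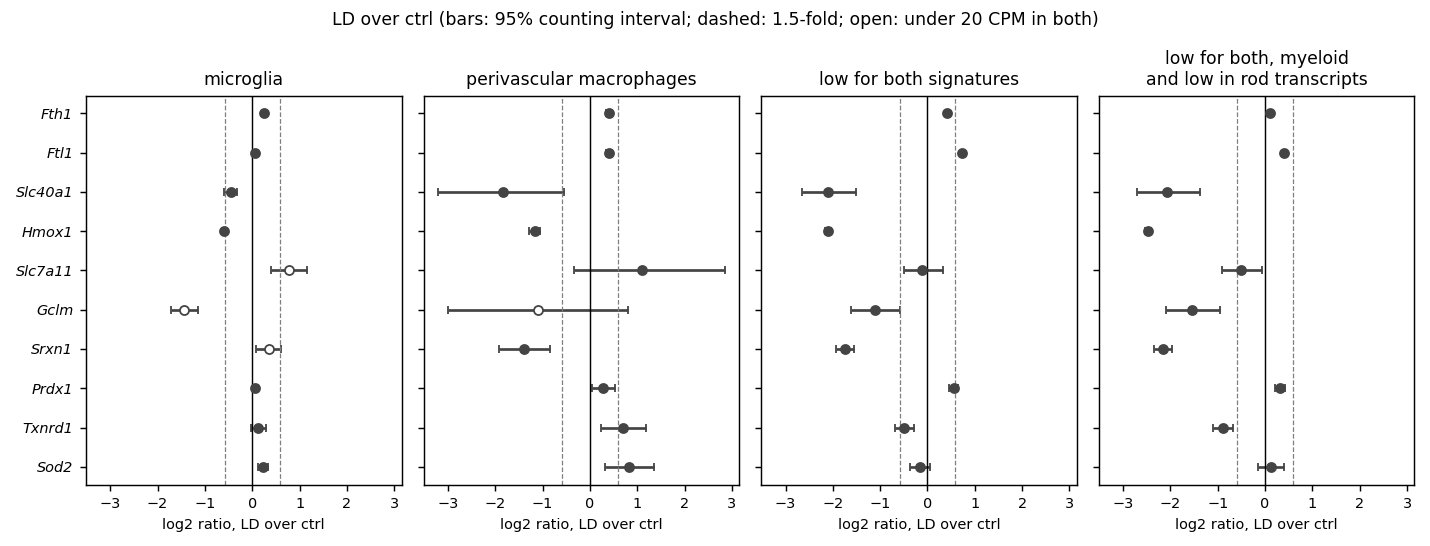
Log2 ratios of LD to ctrl for the 10 genes in each class and in the myeloid low-rod cells, with 95% counting intervals, lines at 0 and at the 1.5-fold bounds, and open points for genes under 20 CPM in both libraries. Hmox1, Slc40a1 and Srxn1 lie left of the bounds in perivascular macrophages, low-signature cells and myeloid low-rod cells. In microglia Hmox1 lies just past the bound.

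Fth1 (ENSMUSG00000024661, chromosome 19, 9980598 to 9985098, plus strand) encodes the iron-oxidising ferritin chain. It was higher in perivascular macrophages and low-signature cells than in microglia in both libraries. It stood at 8351 CPM in LD and 7060 CPM in ctrl microglia, a ratio of 1.18 (1.17 to 1.19). Perivascular macrophages held 14057 CPM in LD and 10702 CPM in ctrl (1.31), and low-signature cells held 15347 CPM in LD and 11451 CPM in ctrl (1.34). None of those condition ratios was called. In myeloid low-rod cells the ratio was 1.07, with 15363 CPM in LD and 14310 CPM in ctrl.

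Ftl1 (ENSMUSG00000050708, chromosome 7, 45457944 to 45459884, minus strand), the light ferritin chain, had 7957 CPM in LD and 7605 CPM in ctrl microglia, a ratio of 1.05 (1.04 to 1.05). Its perivascular levels were 14006 CPM in LD and 10610 CPM in ctrl (1.32). Low-signature cells had 17236 CPM in LD and 10333 CPM in ctrl, a called ratio of 1.67 (1.64 to 1.70). That call was not kept in myeloid low-rod cells, where the levels were 17220 CPM in LD and 13047 CPM in ctrl and the ratio 1.32. Of the 50-base words at the 3′ end of Ftl1, 79.2% also occur in other annotated genes, so its counts can depend on how reads with several matches were treated, although none of those words occurs in another gene counted in the files.

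Slc40a1 (ENSMUSG00000025993, chromosome 1, 45908068 to 45926523, minus strand) encodes ferroportin. Microglia had 31.7 CPM in LD and 43.4 CPM in ctrl, a ratio of 0.730 (0.663 to 0.804), within the 1.5-fold bounds. In perivascular macrophages it was 11.3 CPM in LD and 40.4 CPM in ctrl, from 9 and 15 UMIs, 3.58-fold lower in LD (1.47 to 9.27). In the 30 LD and 13 ctrl perivascular macrophages with handling-stress sums under 100 per 10000 its log2 ratio was -0.10, which ended that call, and the Hmox1 and Txnrd1 calls of the class ended there too, at -0.21 and 0.083. Low-signature cells held 6.82 CPM in LD and 29.1 CPM in ctrl, 4.26-fold lower in LD (2.84 to 6.29). Myeloid low-rod cells gave nearly the same, 6.42 CPM in LD and 26.8 CPM in ctrl, 4.18-fold lower (2.59 to 6.53). Ferroportin was thus the member with an iron-responsive element whose ratio of LD to ctrl was below 1 in every class. The ratios of both ferritin chains were above 1 in every class. In the handling-stress bands described further on, both chains stayed above 1 throughout in microglia. In myeloid low-rod cells the direction was not kept in every band. Fth1 ratios there were 1.07, 0.935, 0.984, 0.871 and 1.29, and those of Ftl1 1.46, 0.987, 1.14, 0.972 and 1.14. For Slc40a1 the ratio there was 0.954 (0.163 to 38.5) at sums of 0 to 50, from 44 LD UMIs and 1 ctrl UMI. At 50 to 100, LD had 4.12 CPM and ctrl had 0 UMIs. Those counts are too few to show a direction below 100. Ratios were 0.176, 0.128 and 0.307 at 100 to 200, 200 to 400 and at least 400, from 7, 9 and 10 ctrl UMIs. The interval of the last spanned 1. In low-signature cells with sums under 100 the Slc40a1 log2 ratio was -1.72.

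Hmox1 (ENSMUSG00000005413, chromosome 8, 75093621 to 75100589, plus strand) encodes the heme-opening enzyme. In order of level, ctrl perivascular macrophages had 3318 CPM, ctrl low-signature cells 2510, LD perivascular macrophages 1480, ctrl microglia 633, LD low-signature cells 583 and LD microglia 416. No neighbours in that order had overlapping counting intervals. Within a class, LD was below ctrl each time, 2.24-fold in perivascular macrophages (2.07 to 2.43), 4.31-fold in low-signature cells (4.13 to 4.48) and 1.52-fold in microglia (1.48 to 1.56). In myeloid low-rod cells the gap widened to 5.55-fold (5.32 to 5.78), with 577 CPM in LD and 3201 CPM in ctrl. The microglial ratio lay close to the 1.5-fold bound. Its call was lost, at a log2 ratio of -0.39, when CPM was averaged over cells, and at -0.32 when every cell was cut to 2700 UMIs before gating. The perivascular call was lost under narrower gates, which kept 23 LD and 17 ctrl cells and gave a log2 ratio of 0.10.

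Slc7a11 (ENSMUSG00000027737, chromosome 3, 49892526 to 50443614, minus strand), the transport chain of the cystine importer xCT, was scarce in microglia, at 7.84 CPM in LD and 4.60 CPM in ctrl, under the minimum for a call (ratio 1.71, 1.31 to 2.23). Narrower gates gave a microglial log2 ratio of -0.17, so the direction was not kept. Perivascular macrophages had 28.9 CPM in LD and 13.5 CPM in ctrl, from 23 and 5 UMIs, and the interval of the ratio of 2.14 ran from 0.797 to 7.22. Low-signature cells had 38.8 CPM in LD and 41.8 CPM in ctrl, a ratio of 0.929 (0.704 to 1.25), and myeloid low-rod cells 37.8 CPM in LD and 53.6 CPM in ctrl, 0.705 (0.531 to 0.953). In this gene the cell class separated levels more widely than the condition did. Gclm (ENSMUSG00000028124, chromosome 3, 122245557 to 122270732, plus strand), the regulatory subunit of the enzyme that starts glutathione synthesis, stayed low throughout. It had 5.32 CPM in LD and 14.4 CPM in ctrl microglia, from 173 and 238 UMIs, 2.71-fold lower in LD (2.22 to 3.31) but under the minimum. Low-signature cells had 13.8 CPM in LD and 29.8 CPM in ctrl, 2.16-fold lower (1.49 to 3.06). Myeloid low-rod cells had 11.2 CPM in LD and 32.7 CPM in ctrl, 2.92-fold lower (1.93 to 4.29). In low-signature cells with handling-stress sums under 100 per 10000 the log2 ratio was -0.31, which ended the Gclm call. In perivascular macrophages 6 UMIs were counted in each library.

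Srxn1 (ENSMUSG00000032802, chromosome 2, 152105516 to 152111376, plus strand), the enzyme that rescues over-oxidised peroxiredoxins, had its widest differences between classes in ctrl. Microglia had 13.4 CPM in LD and 10.6 CPM in ctrl, a ratio of 1.27 (1.06 to 1.52) under the minimum. In perivascular macrophages it was 69.1 CPM in LD and 181 CPM in ctrl, 2.61-fold lower in LD (1.80 to 3.80). Low-signature cells held 71.5 CPM in LD and 240.2 CPM in ctrl, 3.36-fold lower (2.95 to 3.82), and myeloid low-rod cells 67.4 CPM in LD and 303 CPM in ctrl, 4.49-fold lower (3.92 to 5.12). Perivascular macrophages and low-signature cells were therefore both lower in LD for Srxn1, as they were for Hmox1. The pooled microglial ratio lay on the other side of 1, with a log2 ratio of -0.23 under narrower gates. Within the bands of the microglial signature described further on, LD lay below ctrl for Srxn1 in all but the highest band.

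Prdx1 (ENSMUSG00000028691, chromosome 4, 116685544 to 116700822, plus strand), the abundant cytosolic peroxidase on which sulfiredoxin acts, had ratios of LD to ctrl above 1 in each whole class. It had 352 CPM in LD and 336 CPM in ctrl microglia (1.05, 1.01 to 1.08) and 662 CPM in LD and 545 CPM in ctrl perivascular macrophages (1.22). Low-signature cells had 1152 CPM in LD and 784 CPM in ctrl, a ratio of 1.47 (1.38 to 1.57) just under the bound, and myeloid low-rod cells had a ratio of 1.25. Within cells of like handling stress, in the 5 bands described further on, Prdx1 ratios were 1.14, 0.898, 0.964, 0.872 and 0.842 in microglia and 0.816, 0.768, 0.513, 1.56 and 1.12 in myeloid low-rod cells, so the direction was not kept. In perivascular macrophages with stress sums under 100 its log2 ratio was -0.71. Of its 3′ words, 31.8% occur in other annotated genes and none in another counted gene. Txnrd1 (ENSMUSG00000020250, chromosome 10, 82833951 to 82897712, plus strand), which recharges thioredoxin with NADPH, went apart in perivascular macrophages and low-signature cells. Perivascular macrophages had 219 CPM in LD and 135 CPM in ctrl, 1.62 (1.18 to 2.27), and low-signature cells 124 CPM in LD and 175 CPM in ctrl, 0.710 (0.618 to 0.818). Microglia had 30.7 CPM in LD and 28.1 CPM in ctrl (1.09, 0.977 to 1.22). In myeloid low-rod cells Txnrd1 was called, at 119 CPM in LD and 219 CPM in ctrl, 1.85-fold lower (1.60 to 2.13). The perivascular call was lost under the narrower gates, at a log2 ratio of -0.050.

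Sod2 (ENSMUSG00000006818, chromosome 17, 13006846 to 13040063, plus strand), the mitochondrial enzyme, had 76.9 CPM in LD and 66.0 CPM in ctrl microglia (1.16, 1.08 to 1.25). Perivascular macrophages had 191 CPM in LD and 108 CPM in ctrl, from 152 and 40 UMIs, a called ratio of 1.77 (1.24 to 2.58). Low-signature cells had 131 CPM in LD and 146 CPM in ctrl, a ratio of 0.896 (0.773 to 1.04). The direction turned in myeloid low-rod cells, at 129 CPM in LD and 119 CPM in ctrl, 1.09 (0.902 to 1.32). Both of those intervals spanned 1. Of its 3′ words, 4.58% occur in other counted genes.

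The classes were gates on a continuum, so levels were also read across bands of the microglial signature in cells with perivascular sums under 10. The bands were 0 to 5, 5 to 10, 10 to 20, 20 to 40, 40 to 80 and at least 80 per 10000, with 644, 527, 785, 2045, 2226 and 114 LD cells and 143, 101, 144, 430, 1925 and 1019 ctrl cells. The libraries thus filled the bands unequally. Hmox1 in LD was 609, 551, 874, 557, 266 and 241 CPM from the lowest to the highest band. In ctrl it was 2313, 2766, 3013, 1909, 510 and 263 CPM. LD was below ctrl in every band, by the least in the highest band.

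Srxn1 in LD was 99.6, 37.8, 50.5, 21.5, 4.76 and 6.78 CPM over the same bands, and in ctrl 281, 187, 129, 42.4, 6.39 and 3.96 CPM. Its ctrl level was lower at each step toward a strong signature, and LD lay below ctrl in all but the highest band. Slc40a1 changed the opposite way with the signature in LD, at 8.63, 4.66, 16.1, 24.6, 38.4 and 59.3 CPM. In ctrl it was 33.0, 24.0, 21.4, 35.7, 39.3 and 56.9 CPM, so that the libraries were close in the 2 bands with the strongest signature. LD values lay below ctrl in the weaker bands. In the 10 to 20 band the intervals overlapped, at 13.4 to 19.1 CPM in LD and 12.7 to 33.8 CPM in ctrl. Ftl1 in LD stood at 19028 CPM in the lowest band and 6021 CPM in the highest, against 8776 and 6071 CPM in ctrl. Prdx1 followed the signature downward in both libraries, at 1360, 903, 696, 399.9, 301 and 312 CPM in LD and 919.97, 607, 446, 348, 338 and 327 CPM in ctrl, with LD above ctrl in the 4 weakest bands. Txnrd1 was 165.5, 74.0, 87.3, 41.9, 18.6 and 20.3 CPM in LD and 180, 168, 165, 56.9, 22.9 and 25.2 CPM in ctrl. Slc7a11 in LD was highest in the lowest band, at 62.1 CPM against 33.0 CPM in ctrl. In the 10 to 20 band, the highest of ctrl, it was 26.02 CPM in LD and 85.4 CPM in ctrl. Rod-rich and non-myeloid ctrl cells sit in the lowest bands, and their part in these levels was not tested by band.

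**Figure D3:**
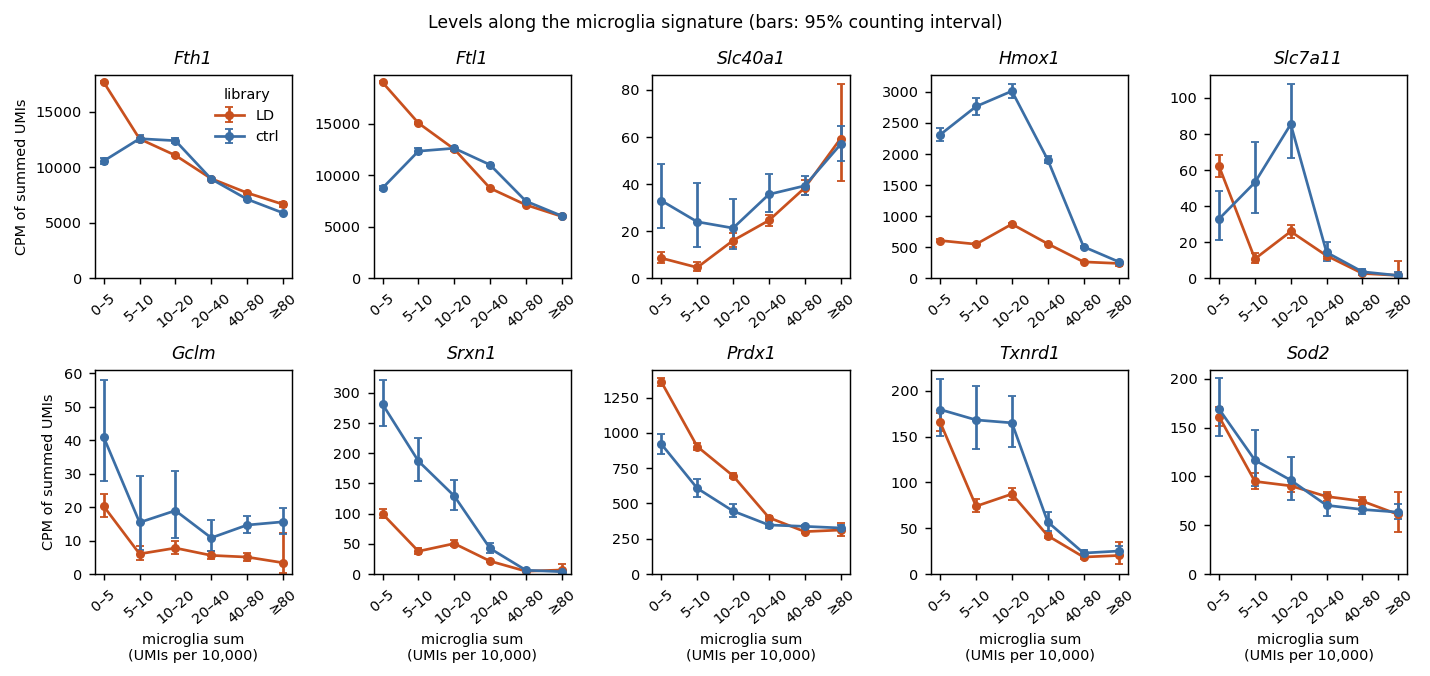
Levels of the genes (CPM) by band of the microglial signature per 10000 UMIs, LD and ctrl as separate lines with 95% counting intervals. Hmox1 in ctrl reaches 3013 CPM in the 10 to 20 band, where LD has 874 CPM, and the libraries meet at the strongest signature, with 241 CPM in LD and 263 CPM in ctrl.

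Handling-stress transcripts moved with Hmox1, so both libraries were compared in cells with a like sum of the 8 stress genes. In microglia with sums of 0 to 50, 50 to 100, 100 to 200, 200 to 400 and at least 400 per 10000, Hmox1 was 110, 274, 428, 796 and 2243 CPM in LD. The matching ctrl values were 134, 203, 344, 727 and 2127 CPM. The ratios of LD to ctrl were 0.820, 1.35, 1.24, 1.09 and 1.05, so the pooled lower level of LD microglia was found within the lowest band and in none of the other 4. LD had 1653, 898, 882, 567 and 385 microglia in the bands and ctrl 680, 490, 823, 770 and 611, so ctrl microglia were more often in the high-stress bands.

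Slc40a1 and Gclm behaved differently from Hmox1 in the same bands of microglia. Slc40a1 ratios of LD to ctrl were 0.788, 0.715, 0.747, 0.597 and 0.519, and those of Gclm 0.375, 0.477, 0.276, 0.525 and 0.156, below 1 in all 5 bands. Srxn1 ratios in microglia were 0.669, 3.59, 1.88, 1.27 and 1.63, above 1 in 4 of the 5 bands. In myeloid low-rod cells Hmox1 was 297, 486, 680, 1265 and 2555 CPM in LD and 763, 1877, 3781, 2643 and 4567 CPM in ctrl. LD was below ctrl in all 5 bands, with ratios of 0.390, 0.259, 0.180, 0.479 and 0.559. Srxn1 there was 65.2, 79.3, 63.0, 66.5 and 65.9 CPM in LD and 455, 424, 581, 164 and 142 CPM in ctrl, flat across stress in LD and below ctrl in all 5 bands. Those ctrl bands held 27, 20, 27, 33 and 57 cells and the LD bands 508, 202, 213, 157 and 54.

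**Figure D4:**
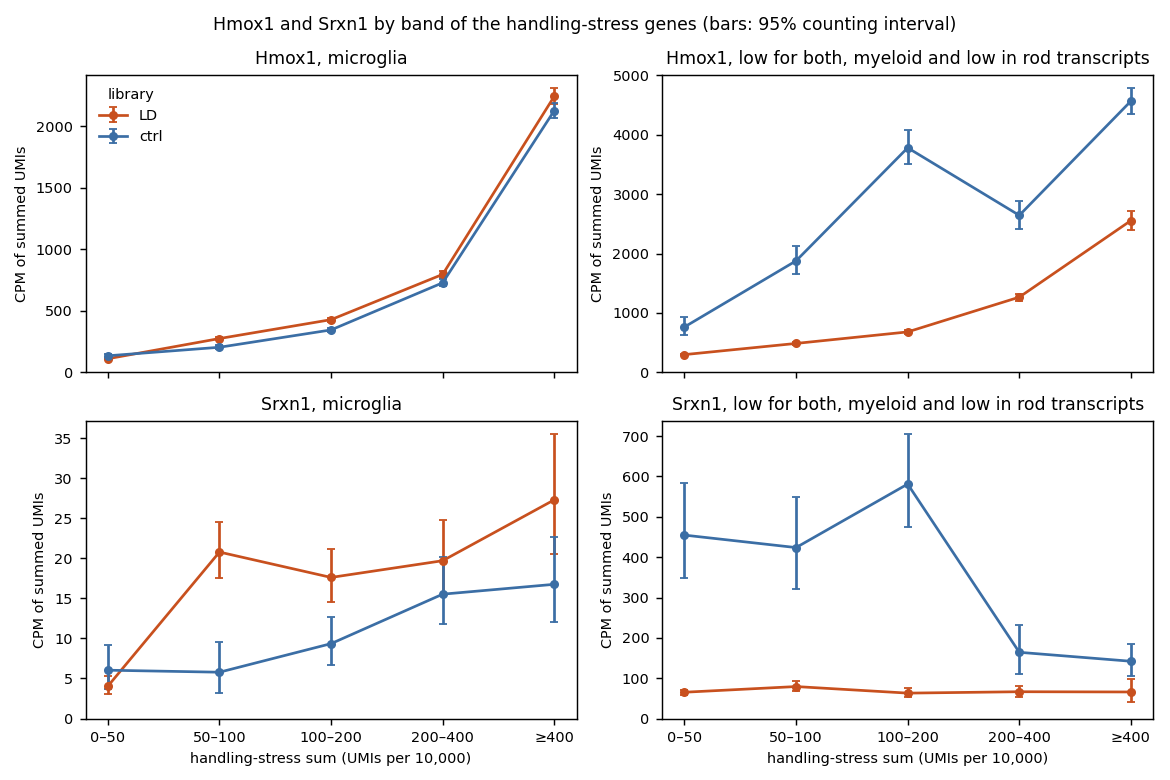
Hmox1 and Srxn1 levels (CPM) by band of the summed handling-stress genes per 10000 UMIs, for microglia and for myeloid low-rod cells, LD and ctrl as separate lines with 95% counting intervals. Hmox1 climbs with the stress sum in LD microglia, with 110 CPM in the lowest and 2243 CPM in the highest band, close to the ctrl line, while the myeloid low-rod lines stay apart.

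To compare shares of cells with a UMI, every cell was cut to 2700 UMIs, which left out 439 ctrl microglia, 6 ctrl perivascular macrophages and 64 ctrl low-signature cells and no LD cell. Hmox1 was found in 33.9% of LD and 43.8% of ctrl microglia (53.5% and 56.5% uncut). It was found in 46.3% of LD and 79.9% of ctrl myeloid low-rod cells, and Srxn1 in 11.4% and 34.0%. Prdx1 went the other way there, with 78.3% of LD and 53.5% of ctrl cells. No cell type in these libraries is known to lack these genes. The nearest measure of background was the kept cells with under 20 pan-myeloid counts per 10000 and at least 2700 UMIs. These numbered 29 in LD and 33 in ctrl, with median depths of 5827 and 4549 UMIs. Before the depth limit, ctrl had 62 such cells among low-signature cells and 2 between the gates. In the 29 LD and 33 ctrl cells, Hmox1 was found in 34.5% in LD and 18.2% in ctrl, and Srxn1 in 17.2% and 3.03%. Shares in microglia at or below those, 33.9% for Hmox1 in LD, 2.53% for Srxn1 in LD and 2.18% in ctrl, are given as values only. Those comparison cells were not empty of the genes, with Hmox1 at 498 CPM in LD at the same depth, so they set no clean background.

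Hmox1 UMIs were concentrated in few microglia. At equal depth the variance was 12.4 times the mean in LD and 13.9 times in ctrl, and the top 10% of cells held 76.3% of the UMIs in LD and 72.5% in ctrl. Prdx1 was close to counting noise, with ratios of 1.13 in LD and 1.04 in ctrl, and so was Sod2, with 1.01 and 1.03. A single microglial cell reached 56 Hmox1 UMIs in LD and 57 in ctrl. Microglia with an Hmox1 UMI also held more of some other members than microglia without one. Slc7a11 was 8.64-fold higher in those cells in LD and 4.04-fold in ctrl, Srxn1 7.24-fold and 3.79-fold, Txnrd1 2.75-fold and 1.91-fold and Ftl1 1.32-fold and 1.39-fold. Fth1 and Prdx1 differed little, with ratios of 1.08 and 0.928 in LD. For Slc40a1 (0.828 in LD and 0.973 in ctrl), Gclm (1.17 and 0.925) and Sod2 (1.07 and 1.04) the intervals spanned 1 in both libraries.

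As a description across cells at equal depth, which share a library and its free RNA, Ftl1 and Hmox1 correlated at r = 0.36 over 4385 LD microglia and 0.425 over 2935 ctrl microglia. Among low-signature cells, Fth1 and Ftl1 correlated at 0.54 over 1171 LD cells and 0.62 over 180 ctrl cells, and Srxn1 and Txnrd1 at 0.52 and 0.54. Those ctrl cells include non-myeloid and rod-rich cells, and r is not given for myeloid low-rod cells alone. For Fth1 and Ftl1 r was 0.21 in LD and 0.18 in ctrl microglia, and 0.44 in LD and 0.21 in ctrl perivascular macrophages. For Srxn1 and Txnrd1 r was 0.29 in LD and 0.18 in ctrl microglia, and 0.11 over 84 LD and 0.58 over 47 ctrl perivascular macrophages.

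Within LD alone, levels in myeloid low-rod cells were read across bands of 6 genes that mark lesion-associated macrophages, with 512, 267, 146 and 209 cells at sums of 0 to 20, 20 to 50, 50 to 100 and at least 100 per 10000. Ftl1 was 10852, 15484, 21110 and 26401 CPM from low to high, Prdx1 687, 895, 1459 and 1841 CPM and Gclm 5.00, 10.3, 12.2 and 21.1 CPM. Hmox1 ran down the same bands, at 664, 603, 551 and 435 CPM. Light ferritin and the peroxiredoxin were therefore highest in the LD cells with the most lesion-associated RNA, and heme oxygenase lowest there. Fth1 was highest in the 50 to 100 band, at 19801 CPM against 17347 CPM in the top band. In ctrl the lower 2 bands held 116 and 32 cells, with Ftl1 at 11707 and 13839 CPM, Prdx1 at 525 and 2203 CPM and Hmox1 at 3508 and 2324 CPM. In the 0 to 20 band Ftl1 was thus lower in LD than in ctrl, and in the 20 to 50 band Prdx1 was, against the direction of the whole class. The upper 2 ctrl bands held 13 and 3 cells. The same LD cells also differed along handling stress. From the lowest to the highest stress band, Ftl1 was 18699 and 11767 CPM, Prdx1 1418 and 321 CPM and Hmox1 297 and 2555 CPM. Whether the lesion order holds apart from the stress order was not tested.

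The wider pathways were read from 4 lists of 92 genes, of which 91 are in the files, covering iron, heme, NRF2 and glutathione, and antioxidant enzymes. In microglia 0 of 7 measured iron genes and 0 of 13 heme genes passed 1.5-fold in either direction, and 1 of 15 NRF2 and glutathione genes and 1 of 19 antioxidant genes were lower in LD. Median log2 ratios were -0.02, 0.09, 0.08 and 0.12 for the 4 lists in that order, against -0.02 for all genes. Gstp1, a glutathione transferase, was 15.7 CPM in LD and 79.8 CPM in ctrl microglia, 5.07-fold lower (4.57 to 5.63). Rod markers in microglia also summed lower in LD, to 117 CPM against 559 CPM in ctrl. What part free retinal RNA had in the Gstp1 levels was not tested. Txnip, which binds and blocks thioredoxin, was 154 CPM in LD and 269 CPM in ctrl, 1.75-fold lower (1.68 to 1.83). The next widest differences stayed within the bounds, among them Ucp2, a mitochondrial carrier, at 395 CPM in LD and 271 CPM in ctrl (1.46), Gpx1, a glutathione peroxidase, at 613 and 430 CPM (1.43), and Pcbp2, an iron chaperone, at 232 and 163 CPM (1.42). Sqstm1, the autophagy receptor that also feeds back on NRF2, was 181 CPM in LD and 244 CPM in ctrl (0.744).

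In perivascular macrophages 1 of 10 measured iron genes was higher in LD and 2 lower, and 4 of 11 heme genes were higher. Of the NRF2 and glutathione list 2 of 15 were higher and 1 lower, and of the antioxidant list 5 of 21 were higher. Over all genes tested in this class 21.1% were higher and 16.1% lower. Gpx3, the secreted glutathione peroxidase, had 165 CPM in LD and 21.6 CPM in ctrl, 7.63-fold higher (3.76 to 18.1) from 131 and 8 UMIs. Ceruloplasmin (Cp), the copper oxidase that works beside ferroportin, was 205 CPM in LD and 99.7 CPM in ctrl, 2.05-fold higher (1.43 to 3.02).

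In myeloid low-rod cells 33% of all genes tested were higher in LD and 18.4% lower. Among antioxidant enzymes 13 of 20 were higher in LD and none lower, among NRF2 and glutathione genes 8 of 17 were higher and 5 lower, among heme genes 6 of 12 were higher and 2 lower, and among iron genes 2 of 9 were lower. List medians in log2 were 0.68, 0.56, 0.59 and -0.40 in that order, against 0.28 for all genes. Txn1, thioredoxin itself, was 440.3 CPM in LD and 142 CPM in ctrl, 3.10-fold higher, and Prdx4, the peroxiredoxin of the secretory pathway, was 3.11-fold higher. On the other side, Nfe2l2, which encodes NRF2, was 257 CPM in LD and 568 CPM in ctrl, 2.21-fold lower, and Sqstm1 was 2.86-fold lower. Gclc, the catalytic partner of Gclm, was 2.34-fold lower. The farthest heme gene, the hemoglobin scavenger receptor Cd163 at 1.28 CPM in LD and 29.8 CPM in ctrl, is one of the perivascular gate genes and is bounded by the gate. The list named for NRF2 therefore held genes called in both directions, with Gclc and Nfe2l2 on the lower side.

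**Figure D5:**
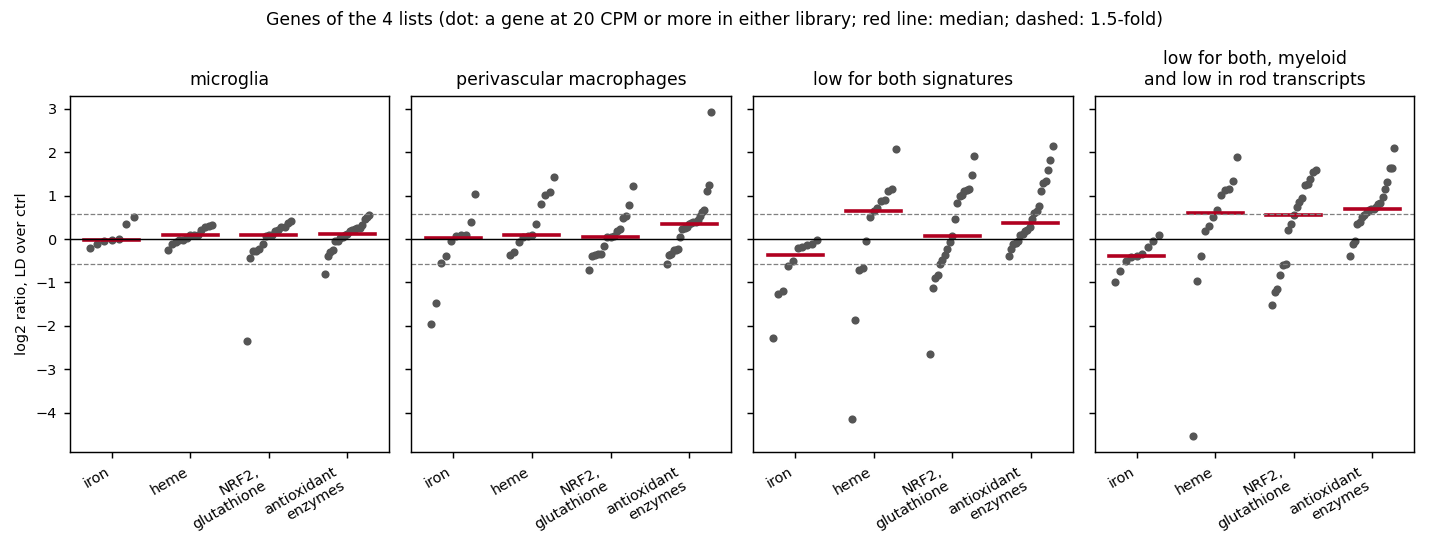
Log2 ratio of LD to ctrl for the measured genes of the 4 pathway lists in microglia, perivascular macrophages, low-signature cells and myeloid low-rod cells, 1 point per measured gene, a red line at each list's median and dashed lines at the 1.5-fold bounds. In microglia nearly all points lie inside the bounds, with Gstp1 at -2.34 outside, and in myeloid low-rod cells most antioxidant enzymes lie above 0.

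For each member the nearest genes were found by root-mean-square distance of centred log2(CPM + 10) over the 6 sums of library and class, among 3412 genes. Nearest to Hmox1 were Hsp90aa1 (0.137) and Dnaja1 (0.157), a heat-shock chaperone and its helper. Hsp90aa1 had 1582 CPM in LD and 2481 CPM in ctrl microglia, and 1876 CPM in LD and 7506 CPM in ctrl low-signature cells. Nearest to Fth1 were Chmp4b (0.119) and Cd63 (0.121), to Slc40a1 St3gal6 (0.206) and Pik3r1 (0.215), and to Txnrd1 Gch1 (0.152) and Nr4a2 (0.162). Srxn1 had no close companion, its nearest being Stap1 at 0.406. With 6 sums these distances describe a shared order of levels and no more.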

How the data were processed

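For each of the 2 libraries the authors deposited a matrix of raw UMI counts per gene and cell barcode, made with Cell Ranger 2.0.0 on mm10, per the submitters' processing notes. The treatment of reads with several matches is not given in the sources used here. Totals were 58187149 UMIs over 6821 barcodes in LD and 20056338 over 4003 in ctrl, and depth sets the counting intervals given. Barcodes with under 300 genes or over 10% mitochondrial UMIs were left out. The automatic threshold of Scrublet (scanpy 1.11.5) marked 1 LD and 0 ctrl barcodes and had not worked, so the highest scores, 0.8% per 1000 barcodes, were removed as doublets (372 in LD, 128 in ctrl). UMIs were summed per library and class and scaled to CPM. Ratios have exact conditional intervals and shares have Clopper-Pearson intervals (scipy 1.17.1). No count test was possible with 1 library per condition, and the ratio code was tested on simulated data. Pathway genes named are the 4 per list with the widest microglial ratios, and further genes were chosen after their values were seen. The members, gates and lists were chosen with earlier results of these data known. Flvcr1 and Trac were not analysed here.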

Additional observations from a re-analysis of the deposited data

Results flagged for a closer look

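Txnrd1 was the member whose ratio of LD to ctrl passed or approached the bounds in opposite directions in perivascular macrophages and low-signature cells. Its log2 ratio was 0.70 in perivascular macrophages, from 174 LD and 50 ctrl UMIs, and -0.49 in low-signature cells, from 1580 LD and 234 ctrl UMIs. The counting intervals of the ratios, 1.18 to 2.27 and 0.618 to 0.818, did not overlap. Under narrower gates the log2 ratios were -0.050 in perivascular macrophages and 0.086 in low-signature cells, so both directions turned. The difference between the classes was not tested, since each class had 1 library per condition. The handling-stress sums moved with condition in both classes. They were 19495 CPM in LD and 40197 CPM in ctrl perivascular macrophages, and 9561 CPM in LD and 25783 CPM in ctrl low-signature cells. In cells with such sums under 100, the Txnrd1 log2 ratio was 0.083 in perivascular macrophages, which ended that call. It was -0.52 in low-signature cells. Across the handling-stress bands of myeloid low-rod cells, Txnrd1 ratios were 0.491, 0.327, 0.294, 0.603 and 0.813, and the interval of the last spanned 1. What part handling stress had in the difference between the classes was not tested.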

How the results depend on the processing

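No paired analysis was possible because each condition has 1 library, so leaving out a replicate was not possible either. Of 677 recomputed member ratios 513 stayed within the counting interval. The sign was opposite in 21, of which 5 belonged to a called ratio. Both the 677 and the 513 include the fold of 2, the minimum of 50 CPM and no minimum. Those settings change calls and cannot change a ratio. In microglia Hmox1 was no longer called lower, leaving 0 lower members, with the mean of CPM per cell, at 2700 UMIs, at a fold of 2 and, in an alternative added after seeing the data, in cells with handling-stress sums under 100, where its log2 ratio was 0.013. Without a minimum level 1 member was higher and 2 were lower. In perivascular macrophages narrower gates left 1 lower member, with log2 ratios of 0.10 for Hmox1 and -0.050 for Txnrd1. There, 1 higher member was left at 2700 UMIs (Slc7a11 -0.22), at a fold of 2 and at stress sums under 100 (Slc7a11 -0.68). In low-signature cells the higher members numbered 2 with no cell filter, with the mean of CPM per cell, without mitochondrial, ribosomal and top genes in the total and at stress sums under 100, 3 with narrower gates, and 0 with the stricter cell filter, at a fold of 2, with pan-myeloid sums of at least 20 and in myeloid low-rod cells. A minimum of 50 CPM left 2 lower members there. In ctrl 1 member was lower than in microglia in perivascular macrophages under narrower gates, and in low-signature cells with no doublets removed and in myeloid low-rod cells. Narrower gates gave class shares of 36.4%, 0.358% and 9.49% in LD and 77.1%, 0.445% and 3.17% in ctrl for microglia, perivascular macrophages and low-signature cells, and the stricter cell filter gave 90.01% microglia and 4.85% low-signature cells in ctrl. Median-of-ratios scaling shifted the median log2 ratio of all genes in low-signature cells to -0.11. The cause of these changes was not tested. Depth limits Slc40a1, Slc7a11 and Gclm most, with 5 to 23 UMIs per library in perivascular macrophages.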
